A study of Homo sapiens with 6 samples.

Results

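The anaphase-promoting complex (APC/C) genes described here were 10 rows of the table of SaOS-2 RNA sequencing values, taken by gene symbol out of 23228 gene names. The set held 5 genes whose proteins direct or restrain the ligase, the coactivators CDC20 and FZR1, the inhibitor FBXO5 and the E2 enzymes UBE2C and UBE2S, and 5 genes of the core complex, ANAPC1, ANAPC2, CDC16, CDC23 and CDC27. All 10 were measured in every library and passed the filter on low values. SaOS-2 is a human osteosarcoma line that lacks p53 and RB, and the cells used here carried a vector that makes the CDK inhibitor p21 when doxycycline is present. The comparison bears on how G1/S and G2/M genes respond to p21 where RB is missing. The 3 p21 OFF libraries came from untreated cells and the 3 p21 ON libraries from cells given 1 µg/ml doxycycline for 24 h. All 6 libraries shared the vector, and no cells given doxycycline without it were analysed here, so an effect of doxycycline and an effect of p21 cannot be told apart.

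The APC/C is a large E3 ubiquitin ligase that marks mitotic proteins for destruction by the proteasome. A scaffold of core subunits holds the catalytic pair ANAPC2, a cullin, and ANAPC11, a RING protein, together with an arm of repeated TPR subunits that includes CDC16, CDC23 and CDC27. The core acts only with a coactivator, CDC20 in mitosis and FZR1 (CDH1) from late mitosis through G1, which brings substrates to the complex. UBE2C places the first ubiquitins on a substrate and UBE2S lengthens the chain, while FBXO5 (EMI1) blocks the ligase during S and G2 phase. Transcripts of CDC20, UBE2C and many substrates peak in G2 and mitosis in cycling cells.

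Recovered reads on genes ran from 12795490 to 21975045 with p21 OFF and from 12918390 to 16630552 with p21 ON. CDKN1A, the gene of p21, had 1257.1, 1186.6 and 1354.9 normalized counts with p21 OFF and 40470.4, 43863.2 and 46738.8 with p21 ON, as the labels say. Reads of the vector and of the cells' own gene were not separated. Of 7 osteoblast markers 6 had a mean of at least 10 normalized counts, and SPP1 had at most 2.96 in any library. Of 7 markers of other cells 3 also had such a mean, the highest being epithelial EPCAM. EPCAM had 300.7 to 374.3 normalized counts with p21 OFF and 291.7 to 324.8 with p21 ON, above the osteoblast marker IBSP. Across 12674 genes the log2 fold change had a Spearman correlation of 0.28 with exonic length. Each library minus the mean of the other 2 of its group was compared with length in the same way. The correlations were -0.39, 0.20 and 0.35 for p21 OFF replicates 1, 2 and 3. For p21 ON replicates 1, 2 and 3 they were 0.25, -0.09 and -0.13. Values of the members with this trend taken out are therefore given as well. These genes share the same 6 libraries and are not replicates. Fold changes are p21 ON over p21 OFF from limma on log2(normalized count + 1), and a gene was called at an adjusted p under 0.05 after Benjamini-Hochberg adjustment over the 13255 genes tested. In RNA from whole cultures, fewer cells that make a transcript and less RNA per cell cannot be told apart.

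The promoter windows of CDC20, FBXO5, UBE2S and CDC23 are shown because these genes span the largest to the smallest change among the members called. Promoters of mitotic genes also often carry a CHR element and CCAAT boxes. FBXO5 (log2 fold change -0.74) and UBE2S (-0.75) fell by about the same amount. No window was found for UBE2C, so none is shown for it. Each window holds the 250 bases upstream of the start of a RefSeq gene model on GRCh38.p14, read 5′ to 3′ on the strand of the gene. The CDC20 window is chr1:43358731-43358980 on the plus strand, the FBXO5 window (the second of its models) chr6:152983042-152983291 on the minus strand, the UBE2S window chr19:55407789-55408038 on the minus strand and the CDC23 window chr5:138213324-138213573 on the minus strand. Capitals mark CHR letters (TTTGAA as the main form and TTTAAA as another), CCAAT boxes (CCAAT) and E2F letters (TTCCCGC as the first form, TTCGCGC as another, TTGCCGC as another and TTGGCGC as the last), each searched on both strands.
CDC20: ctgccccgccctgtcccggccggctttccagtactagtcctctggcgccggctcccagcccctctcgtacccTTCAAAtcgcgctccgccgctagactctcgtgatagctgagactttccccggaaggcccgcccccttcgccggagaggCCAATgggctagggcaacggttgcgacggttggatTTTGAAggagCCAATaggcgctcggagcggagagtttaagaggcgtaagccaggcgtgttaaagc
FBXO5: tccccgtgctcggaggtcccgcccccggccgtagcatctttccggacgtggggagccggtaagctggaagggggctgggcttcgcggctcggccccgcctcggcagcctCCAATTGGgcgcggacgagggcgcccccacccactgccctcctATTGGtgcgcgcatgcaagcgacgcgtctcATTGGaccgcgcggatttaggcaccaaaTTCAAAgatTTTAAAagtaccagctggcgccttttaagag
UBE2S: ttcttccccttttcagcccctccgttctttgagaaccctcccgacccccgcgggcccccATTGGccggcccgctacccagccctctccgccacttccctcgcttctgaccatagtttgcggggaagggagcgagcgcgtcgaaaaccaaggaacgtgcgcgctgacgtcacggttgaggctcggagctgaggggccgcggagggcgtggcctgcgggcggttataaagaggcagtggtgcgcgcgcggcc
CDC23: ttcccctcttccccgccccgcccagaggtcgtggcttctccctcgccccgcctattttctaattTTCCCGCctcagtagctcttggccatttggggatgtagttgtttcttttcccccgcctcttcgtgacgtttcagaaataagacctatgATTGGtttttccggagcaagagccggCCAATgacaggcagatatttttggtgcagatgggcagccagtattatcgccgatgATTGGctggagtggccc
In the CDC20 window, CHR letters began at -178 and -65 and CCAAT boxes at -100 and -55, counted from -1 at the last base before the start. The FBXO5 window held CHR letters at -40 and -31, and CCAAT boxes at -141, -138, -98 and -68, the first pair of which overlap. The UBE2S window held a single CCAAT box at -191. The CDC23 window held 3 CCAAT boxes, at -98, -72 and -17, and E2F letters at -186. Of 11 windows found for 9 of the members, 3 had CHR letters and 2 had both CHR letters and a CCAAT box. Among the 13746 windows of genes tested, 15.9% had CHR letters, 32.9% a CCAAT box, 15.8% E2F letters and 5.75% both CHR letters and a CCAAT box. The windows of CDC16 and CDC27 each held a CCAAT box and E2F letters, and of the FZR1 windows one held CHR letters and the other E2F letters. The remaining window of FBXO5 and those of ANAPC1 and ANAPC2 had none of these letters. The matches describe the windows only, and binding was not measured.

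All 5 genes that direct or restrain the ligase fell with p21 ON, where 12.7% of the genes tested were called lower. For each of the 5 the groups did not overlap and p21 ON was the lower, a pattern held by 21.3% of the genes tested. Their median log2 fold change was -0.75, beside 0.01 for all genes tested. CDC20 and UBE2C fell furthest, to about 34% of their p21 OFF means, while FBXO5 and UBE2S fell to about 60% and FZR1 to 74.8%. The core subunits moved less as a set: 2 of 5 fell, 3 were not called, and their median was -0.28. For 4 of these 5, p21 ON was also the lower without overlap. The ratio of FZR1 to CDC27, given below, overlapped between the groups. Of all 10 members 7 were called, where 23.2% of the genes tested were called in either direction.

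**Figure D1:**
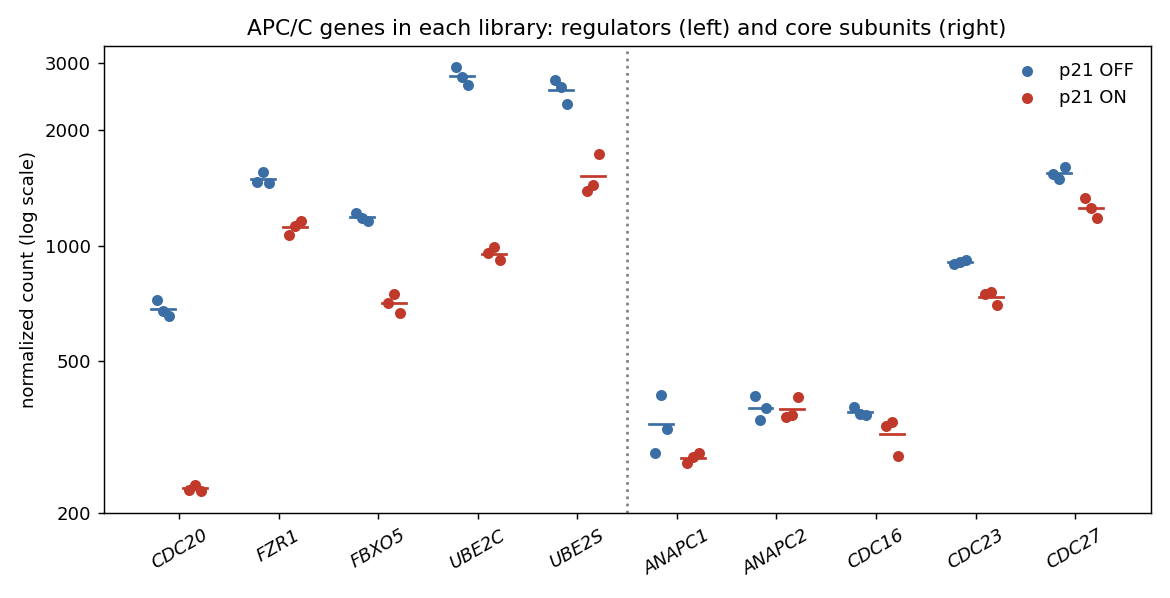
Normalized counts (log scale) of the 10 APC/C genes, with points for single libraries (p21 OFF blue, p21 ON red) and lines for the means of 3. CDC20 and UBE2C show the widest gaps between the groups, and the groups overlap only for ANAPC2. Every p21 ON library lay below every p21 OFF library for 21.3% of the genes tested.

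CDC20 is the coactivator of mitosis and the protein that the spindle checkpoint holds in check. It lies at chr1:43824652-43828874 on the plus strand of GRCh37, the build of all gene positions given here. It had 719.6, 674.1 and 653.4 normalized counts with p21 OFF and 230.5, 237.6 and 229.0 with p21 ON. The p21 ON libraries were close together and far below the lowest p21 OFF library. The means were 682.4 ± 33.9 and 232.4 ± 4.59 (SD, n = 3 each), and the log2 fold change was -1.55 (SE 0.08, limma adjusted p = 8.37e-11). Ordered from the most negative fold change, CDC20 was gene 11 of 13255.

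FZR1, at chr19:3506309-3538332 on the plus strand, makes CDH1, the coactivator that keeps mitotic cyclins low in G1. Its normalized counts were 1461.9, 1557.6 and 1457.6 with p21 OFF and 1067.5, 1125.9 and 1157.4 with p21 ON. The groups stood apart, but the step was the smallest among the coactivators, the inhibitor and the E2 enzymes. The mean fell from 1492.4 ± 56.5 to 1116.9 ± 45.6 (SD, n = 3 each) at a log2 fold change of -0.42 (SE 0.06, limma adjusted p = 0.000144). Its canonical exons share 74 bases with those of MFSD12 on the opposite strand, whose log2 fold change was 0.08 (limma adjusted p = 0.458).

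FBXO5, at chr6:153291654-153304714 on the minus strand, makes EMI1, the inhibitor that lets cyclins build up through S and G2. It had 1219.5, 1180.3 and 1162.0 normalized counts with p21 OFF and 709.0, 749.4 and 668.0 with p21 ON. No p21 ON library came near the lowest p21 OFF library. The mean fell from 1187.2 ± 29.4 to 708.8 ± 40.7 (SD, n = 3 each) at a log2 fold change of -0.74 (SE 0.07, limma adjusted p = 2.13e-07).

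UBE2C, at chr20:44441215-44445596 on the plus strand, makes the E2 that starts the ubiquitin chain. Its normalized counts were 2923.7, 2759.0 and 2627.0 with p21 OFF and 954.6, 989.4 and 915.1 with p21 ON, 2 well separated groups. The mean fell from 2769.9 ± 148.7 to 953.0 ± 37.2 (SD, n = 3 each) at a log2 fold change of -1.54 (SE 0.06, limma adjusted p = 1.97e-11). It was gene 12 in the order in which CDC20 was gene 11.

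UBE2S, at chr19:55911113-55919156 on the minus strand, makes the E2 that extends the chain. It had 2711.5, 2592.6 and 2340.9 normalized counts with p21 OFF and 1390.0, 1439.0 and 1738.9 with p21 ON. The p21 ON libraries were less alike than for UBE2C, with replicate 3 the highest, and still lay below every p21 OFF library. The mean fell from 2548.3 ± 189.2 to 1522.6 ± 188.9 (SD, n = 3 each) at a log2 fold change of -0.75 (SE 0.08, limma adjusted p = 2.02e-06). A lincRNA on the same strand shares 675 bases with its canonical exons. That lincRNA has no value of its own here, and its part in the UBE2S value was not tested. GENCODE names 5 pseudogenes of UBE2C, 2 of UBE2S, 2 of CDC27, 6 of ANAPC1 and 1 of CDC20, none of them a row of the table, and reads shared with near-identical copies would make these counts less certain.

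In the core, CDC23 and CDC27 fell by about the same amount. CDC27, at chr17:45195069-45266788 on the minus strand, is a TPR subunit that docks the coactivators. It had 1538.5, 1492.8 and 1608.4 normalized counts with p21 OFF and 1328.3, 1256.2 and 1178.3 with p21 ON. The groups did not overlap, and the mean went from 1546.5 ± 58.2 to 1254.3 ± 75 (SD, n = 3 each) at a log2 fold change of -0.30 (SE 0.07, limma adjusted p = 0.00327).

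CDC23, the TPR subunit also called APC8, lies at chr5:137523339-137549032 on the minus strand. Its normalized counts were 896.7, 904.6 and 915.8 with p21 OFF and 746.2, 759.1 and 700.3 with p21 ON. The p21 OFF libraries were nearly alike, and all p21 ON libraries were lower. The mean fell from 905.7 ± 9.61 to 735.2 ± 30.9 (SD, n = 3 each) at a log2 fold change of -0.30 (SE 0.07, limma adjusted p = 0.00385). Its canonical exons share 74 bases with those of KIF20A, a mitotic kinesin gene on the opposite strand, named here after its values were seen. KIF20A had 2073.1 ± 104.5 normalized counts with p21 OFF and 770.4 ± 45.9 with p21 ON (SD, n = 3 each) at a log2 fold change of -1.43 (limma adjusted p = 5.18e-11). The strand setting of the counting is not given in the sources used here, and the part of KIF20A reads in the CDC23 value was not tested.

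ANAPC1, CDC16 and ANAPC2 were not called. ANAPC1, the scaffold subunit at chr2:112369216-112642267 on the minus strand, had 287.6, 408.5 and 332.6 normalized counts with p21 OFF and 271.2, 281.5 and 287.0 with p21 ON. The p21 ON libraries were below the p21 OFF libraries by a narrow margin, and p21 OFF replicate 2 stood highest. Its log2 fold change was -0.28 (95% interval -0.50 to -0.05, limma adjusted p = 0.071). The value was -0.40 without p21 OFF replicate 1 and passed the threshold (limma adjusted p = 0.00228), and it was -0.14 without p21 OFF replicate 2. With the length trend taken out it was -0.37 and also passed (limma adjusted p = 0.00783), and in edgeR with TMM it passed at -0.30 (adjusted p = 0.0488). It did not pass in edgeR with DESeq2 size factors (adjusted p = 0.0508), limma-voom (adjusted p = 0.0603) or DESeq2 (adjusted p = 0.0844).

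CDC16, a TPR subunit at chr13:115000362-115038198 on the plus strand, had 379.3, 364.0 and 362.2 normalized counts with p21 OFF and 338.8, 347.3 and 282.2 with p21 ON. The groups did not overlap, and p21 ON replicate 3 was the lowest. Its log2 fold change was -0.20 (95% interval -0.39 to -0.0039, limma adjusted p = 0.128), and it was -0.10 without p21 ON replicate 3.

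ANAPC2, the cullin at chr9:140069236-140083012 on the minus strand, had 405.7, 351.5 and 377.0 normalized counts with p21 OFF and 356.2, 361.9 and 403.9 with p21 ON. The groups overlapped for ANAPC2 and for no other member. For every other member p21 ON was the lower, as for 21.3% of the genes tested. The log2 fold change was -0.02 (95% interval -0.20 to 0.17, limma adjusted p = 0.918), and its sign turned under some settings. The interval lies above the change of each of the 5 genes that direct or restrain the ligase.

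**Figure D2:**
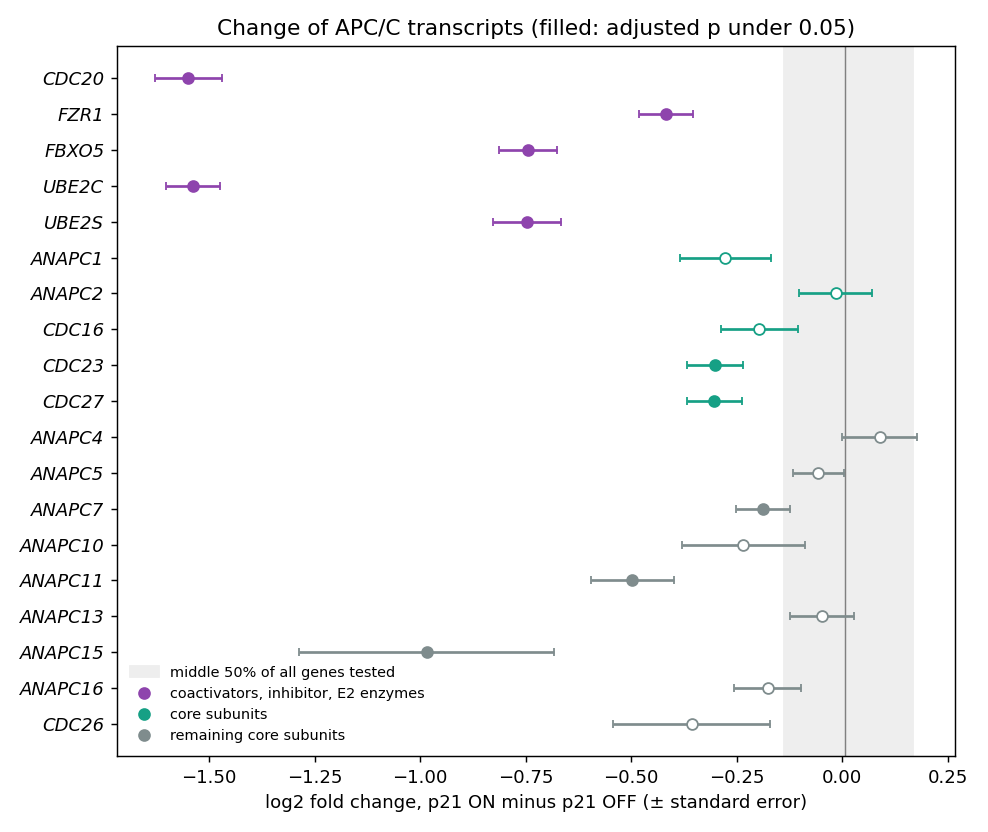
Log2 fold changes of the members and of the remaining core subunits, p21 ON minus p21 OFF, with standard errors from limma. Filled circles passed the threshold, the grey band spans the 25th to 75th percentile of all genes tested, and CDC20 and UBE2C lie near -1.5.

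The remaining 9 subunits of the core were read the same way. Of these, 3 fell, none rose and 6 were not called, beside 12.7% of all genes tested called lower, and their median log2 fold change was -0.19. DESeq2 called 1 of the 9 lower, as did limma without p21 OFF replicate 3 or without p21 ON replicate 1. Over all 14 core subunits, 5 fell and the median was -0.22. ANAPC11, the RING subunit of the catalytic pair, had 877.9, 660.1 and 700.0 normalized counts with p21 OFF and 477.3, 521.5 and 578.7 with p21 ON. The groups did not overlap, and its log2 fold change of -0.50 (SE 0.10, limma adjusted p = 0.00162) was more negative than that of any core member above. It was also more negative than that of FZR1 (-0.42), with 95% intervals that overlapped (-0.70 to -0.29 for ANAPC11, -0.55 to -0.28 for FZR1). ANAPC7, a TPR subunit, had 1308.6, 1229.5 and 1249.9 normalized counts with p21 OFF and 1082.7, 1157.5 and 1088.0 with p21 ON, which gave a log2 fold change of -0.19 (limma adjusted p = 0.0424). This call was lost in DESeq2 (adjusted p = 0.0661), under scaling by library size alone (limma adjusted p = 0.117) and when any library except p21 ON replicate 2 was left out. ANAPC15, listed as C11orf51 and known for its part in releasing the checkpoint complex, was weakly expressed, with 22, 32 and 46 reads in the p21 OFF libraries and 10, 8 and 25 with p21 ON. After normalization these were 28.9 ± 4.63 and 15 ± 7.6 counts (SD, n = 3 each), and the groups did not overlap. Its log2 fold change was -0.98 (SE 0.30, limma adjusted p = 0.0255), it lost its call in DESeq2 (adjusted p = 0.0896), and leaving out p21 OFF replicate 3 gave a limma adjusted p of 0.0801, p21 ON replicate 1 one of 0.102 and p21 ON replicate 2 one of 0.0988. The subunits not called had log2 fold changes of 0.09 for ANAPC4, -0.06 for ANAPC5, -0.23 for ANAPC10, -0.05 for ANAPC13, -0.18 for ANAPC16 and -0.36 for CDC26. Single libraries moved some of these by over 1.5 times: without p21 OFF replicate 1 the value was 0.17 for ANAPC4, -0.02 for ANAPC5, -0.10 for ANAPC10 and 0.04 for ANAPC13, and without p21 OFF replicate 2 it was 0.0010 for ANAPC4 and -0.08 for ANAPC13. For ANAPC4 it was 0.06 without p21 ON replicate 1 and 0.14 without p21 ON replicate 3, for ANAPC10 -0.15 without p21 ON replicate 2, and for ANAPC13 -0.10 without p21 OFF replicate 3 and -0.02 without p21 ON replicate 3. The value for ANAPC10 without p21 OFF replicate 2 was -0.34, a shift of less than 1.5 times. With the length trend taken out ANAPC4 was at 0.06, ANAPC5 at -0.14, ANAPC13 at 0.05 and CDC26 at -0.20, none of them called. CDC26, a small subunit that stabilises CDC16, was also low, at 46.8 ± 3.74 normalized counts with p21 OFF and 36.5 ± 5.46 with p21 ON (SD, n = 3 each).

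Levels were compared between members as normalized counts per kilobase of canonical transcript. With p21 OFF the level of UBE2C was highest, at 3565 ± 191 per kilobase, followed by UBE2S at 996 ± 73.9, FBXO5 at 578 ± 14.3 and CDC20 at 414 ± 20.5 (SD, n = 3 each). CDC23 at 289 ± 3.07 and FZR1 at 288 ± 10.9 overlapped, and CDC27 at 265 ± 9.99, CDC16 at 158 ± 4.03, ANAPC2 at 142 ± 10.2 and ANAPC1 at 44.2 ± 7.88 came after them. With p21 ON the first 3 genes kept their order, with levels of 1227 ± 47.8 for UBE2C, 595 ± 73.8 for UBE2S and 345 ± 19.8 for FBXO5. CDC20 moved from place 4 to place 7, at a level of 141 ± 2.78 per kilobase, where it overlapped ANAPC2 at 141 ± 9.80 and CDC16 at 139 ± 15.2. CDC23 at 235 ± 9.86, FZR1 at 216 ± 8.81 and CDC27 at 215 ± 12.9 then stood above CDC20, and ANAPC1 stayed lowest at 36.1 ± 1.03. The range of CDC27, 202.1 to 227.8 per kilobase, overlapped those of CDC23 and FZR1, and the lowest CDC23 library met the highest FZR1 library at 223.5 per kilobase.

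Ratios between members within a library do not depend on how libraries were scaled, and they test the difference between fold changes directly. The log2 ratio of CDC20 to FZR1, the mitotic coactivator over the G1 coactivator, was -1.02, -1.21 and -1.16 with p21 OFF and -2.21, -2.24 and -2.33 with p21 ON. The groups stood apart, and the means differed by -1.13 (p = 0.1 in an exact two-sided permutation test, which with 3 libraries a group can give no smaller p). The log2 ratio of UBE2C to UBE2S was 0.11, 0.09 and 0.17 with p21 OFF and -0.54, -0.54 and -0.93 with p21 ON. UBE2C had the more reads of the pair in every p21 OFF library and the fewer in every p21 ON library, and the means differed by -0.79 (p = 0.1, same exact test). This change of order holds for reads only, as the transcripts differ in length. Per kilobase UBE2C stayed above UBE2S with p21 ON, at 1227 and 595. The ratio of FBXO5 to FZR1, the inhibitor over a coactivator that it binds, went from -0.33 ± 0.07 to -0.66 ± 0.12 on the log2 scale (SD, n = 3 each), also without overlap, and differed by -0.33 (p = 0.1, same exact test). Chosen after the values were seen, the ratio of CDC20 to CDC27 went from -1.18 ± 0.11 to -2.43 ± 0.09 (SD, n = 3 each). The ratio of FZR1 to CDC27, also chosen so, overlapped between the groups, at -0.05 ± 0.10 and -0.17 ± 0.14 (SD, n = 3 each; p = 0.4, same exact test). Adjusted over the 5 ratios, the exact permutation p was 0.125 for the first 4 and 0.4 for the last. With the length trend taken out, the ratio of CDC20 to FZR1 differed by -0.996 and that of UBE2C to UBE2S by -0.72.

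**Figure D3:**
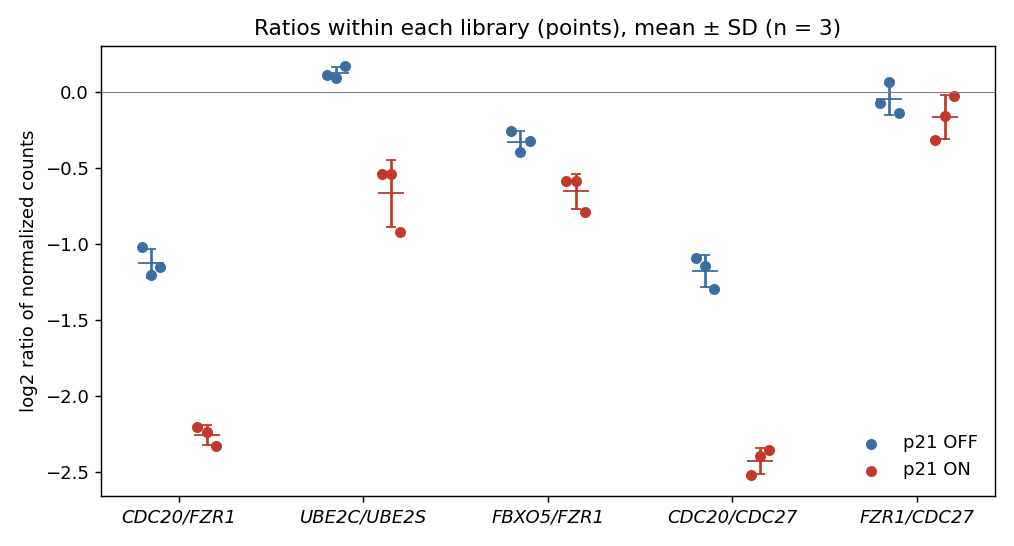
Log2 ratios of normalized counts within each library, with points for libraries and bars for mean ± SD of 3 (p21 OFF blue, p21 ON red). The groups are apart for every pair except FZR1 to CDC27.

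Length bears on these comparisons because the canonical transcripts of UBE2C, at 777 bases, and CDC20, at 1649 bases, are short, while those of ANAPC1, CDC27 and FZR1 have 7762, 5830 and 5178 bases. With the length trend taken out, the log2 fold change was -1.43 for CDC20, -1.39 for UBE2C, -0.71 for FBXO5, -0.67 for UBE2S and -0.43 for FZR1, and all 5 were still called lower. CDC23 and CDC27 also kept their calls, at -0.29 and -0.33. ANAPC1 was added to them, so that 3 of the 5 core members were called lower. In the same fit 1678 of 12674 genes were called lower.

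Genes that act on the ligase from outside the core were taken from a list of 11. Of these, 8 fell, 1 rose and 2 were not called, beside 12.7% of all genes tested called lower, and the median log2 fold change was -0.31. MAD2L1 and BUB1B, which are part of the checkpoint complex that holds CDC20, went from 1050.8 ± 113.3 to 376.2 ± 32.7 and from 3141.4 ± 167.7 to 1303.4 ± 77.4 normalized counts (SD, n = 3 each). Their log2 fold changes were -1.48 (limma adjusted p = 4.42e-10) and -1.27 (limma adjusted p = 9.31e-11). BUB3, another part of that complex, named after its values were seen, fell less. It went from 2211.9 ± 72.7 to 1865.4 ± 74.4 (SD, n = 3 each; log2 fold change -0.25, limma adjusted p = 0.00747). TRIP13, the ATPase that takes the checkpoint complex apart, had 650.0 ± 52.7 normalized counts with p21 OFF and 223.1 ± 9.84 with p21 ON (SD, n = 3 each) at a log2 fold change of -1.54 (limma adjusted p = 2.25e-10). USP37, a deubiquitinase that protects cyclin A from the ligase, was the gene that rose, from 1158.0 ± 15.3 to 1584.8 ± 23.8 (SD, n = 3 each) at a log2 fold change of 0.45 (limma adjusted p = 3.1e-05), where 10.5% of the genes tested were called higher. The genes not called, named after their values were seen, were OTUD7B (0.08) and BTRC (0.03), an F-box protein that marks EMI1 for destruction.

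Of 26 genes of known substrates of the ligase, 24 fell, none rose and 2 were not called, beside 12.7% of all genes tested called lower, and the median log2 fold change was -1.31. Of the members, FZR1, UBE2C, UBE2S and CDC27 are in both the high and the low stringency list of G2/M genes of the study. CDC20 and FBXO5 are in the low stringency list only, and the study used the high stringency list for SaOS-2 cells. These lists come from earlier cell cycle data, and ANAPC1, ANAPC2, CDC16 and CDC23 are in none of the study's cell cycle lists. CDCA5, which makes the cohesin protector sororin, fell to 437.0 ± 14.6 normalized counts from 1346.0 ± 41.6 (SD, n = 3 each; log2 fold change -1.62, limma adjusted p = 1.97e-11). PLK1, the mitotic kinase, fell from 3273.5 ± 151.1 to 1204.1 ± 53.1 (SD, n = 3 each; log2 fold change -1.44, limma adjusted p = 2.07e-11). KIFC1, a spindle motor, and ANLN, which builds the cleavage furrow, had log2 fold changes of -1.36 (limma adjusted p = 4.90e-11) and -1.39 (limma adjusted p = 5.40e-11). The substrates not called, named after their values were seen, were SKP2, an F-box protein, with 808.5 to 815.1 normalized counts with p21 OFF and 839.1 to 915.0 with p21 ON, above every p21 OFF library as for 19.1% of the genes tested (log2 fold change 0.12, limma adjusted p = 0.192, and 0.02 with the length trend taken out), and the origin licensing factor CDC6 (-0.17, limma adjusted p = 0.0617).

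**Figure D4:**
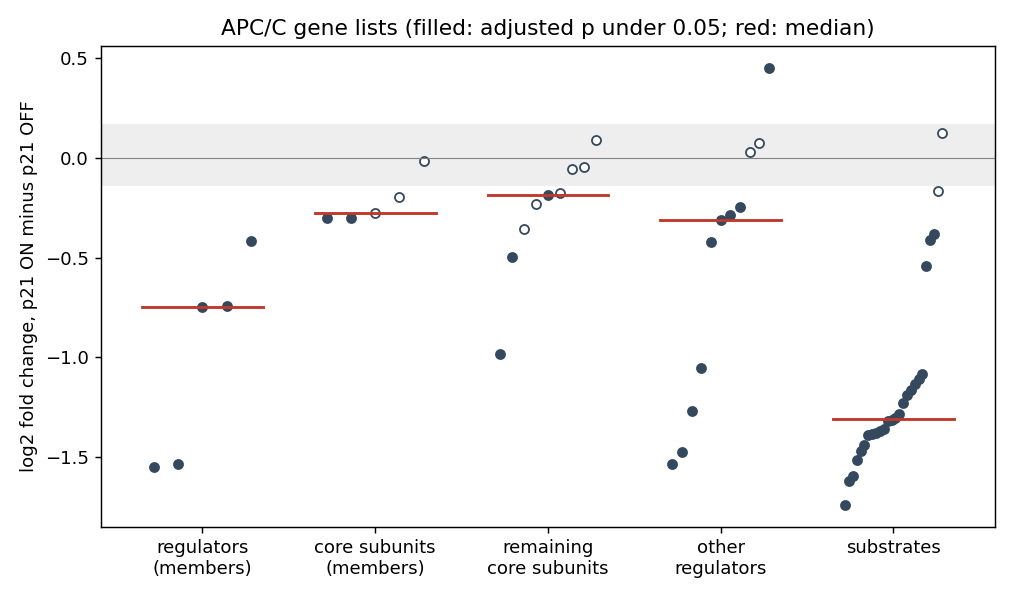
Log2 fold changes (p21 ON minus p21 OFF) of each gene in the APC/C lists, filled where the adjusted p was under 0.05, with the list median in red and the 25th to 75th percentile of all genes tested in grey. The medians are -0.75 for the member regulators, -0.28 for the core members, -0.19 for the remaining core, -0.31 for other regulators and -1.31 for substrates.

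The genes whose centred log2 values over the 6 libraries lay nearest to those of CDC20, among 10432 genes ranked by Euclidean distance, were CDCA3 (distance 0.10), SKA3 (0.11) and CDCA8 (0.12). Their log2 fold changes were -1.60, -1.47 and -1.53, beside -1.55 for CDC20, a likeness that the choice by distance over the same libraries fixes. CDCA3 is a substrate of the ligase, SKA3 a kinetochore protein and CDCA8 (borealin) a member of the chromosomal passenger complex.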

How the data were processed

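RNA of SaOS-2 cells with the doxycycline-inducible p21 vector went through sequencing by the authors from TruSeq stranded mRNA libraries in one HiSeq lane (single-end). Per the labels and the methods, reads were mapped to hg19 with STAR, counted with HTSeq and normalized with DESeq2; versions are not given in the sources used here. Deposited values are these normalized counts, a signal of 0 or above for each gene. Reads were recovered by dividing the values of each library by their smallest common step, the inverse of its size factor, after which 100% were whole within 0.01. The methods call the replicates biological, and replicates differed by more than sampling noise (chi-square per gene 2.71 to 9.26).

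The members and gene lists were chosen with earlier results of these data known. The test was limma 3.58.1 in R 4.3.3 (lmFit, eBayes with trend, no covariates) on log2(normalized count + 1). Genes needed a mean of 10 or more, which 13255 reached, and p was adjusted by Benjamini-Hochberg. The recovered reads were also tested with edgeR 4.0.16, DESeq2 1.42.0 and limma-voom, and other scalings, pseudocounts, filters and thresholds, a length correction, a replicate block and left-out libraries were further alternatives. The ratios to CDC27 and the opposite-strand neighbour KIF20A were added after seeing the data. Positions are from GENCODE release 44 on GRCh37, to which 21288 rows were matched; older symbols counted as a match. Named genes were all members, all core subunits, the 4 regulators and 4 substrates with the lowest adjusted p, CDKN1A and the 3 genes nearest to CDC20. Markers of other cell types summed to 349 to 422 normalized counts with p21 OFF and 342 to 383 with p21 ON. Levels per kilobase assume the canonical transcript.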

Additional observations from a re-analysis of the deposited data

How the results depend on the processing

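CDC20, FZR1, FBXO5, UBE2C and UBE2S kept their direction and their calls under every alternative except a log2 fold change of at least 1, which left 2 of them and none (0) of the core subunits, 0 of the remaining core, 4 other regulators lower and 0 higher, and 152 genes lower and 48 higher in all. An adjusted p under 0.01 left 882 genes lower, 616 higher and 1 of the remaining core, and DESeq2 also called 1 of the remaining core. With each library left out in turn, genes called lower numbered 888 to 1662 and higher 692 to 1488 (888 and 692 without p21 ON replicate 1, 1076 and 739 without p21 ON replicate 3), the remaining core 1 to 2 and other regulators 5 to 7 lower; the core subunits gave 2 to 3. The log2 fold change so ranged from -1.58 to -1.51 for CDC20, from -0.44 to -0.39 for FZR1 and from -0.35 to -0.26 for CDC27. With the length trend taken out the ratio of CDC20 to FZR1 differed by -0.996 and that of CDC20 to CDC27 by -1.10. The sign of ANAPC2 turned in edgeR with DESeq2 size factors (0.00089), limma-voom (0.00086), scaling by library size (0.028) and without single libraries (-0.072 to 0.037), that of ANAPC13 with the length trend taken out (0.053) and without libraries (-0.10 to 0.038), that of OTUD7B likewise (-0.0084, and -0.0093 to 0.12) and that of BTRC without libraries (-0.052 to 0.079). The cause was not tested, and none of these was called. CDC6 was called with the length trend taken out (limma adjusted p = 0.0395) and without p21 ON replicate 2 (0.0385). Scaling by library size moved the share of calls that were higher from 45.3% (1393 higher, 1681 lower) to 63.0% (2034 higher, 1194 lower). Libraries of equal replicate number showed no shared deviation from their group means (correlations -0.06, -0.02 and -0.05). These values cannot decide whether the samples were prepared in pairs. A replicate block gave 5 of the first list, 3 core subunits (ANAPC1 added, limma adjusted p = 0.0473) and 2 of the remaining core (ANAPC7 lost, 0.0959). With that block 1407 genes were called higher and 1513 lower. Depth limits ANAPC15, counted with 8 to 46 reads a library.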
